A study of Homo sapiens with 8 samples.

Results

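SQ20B is an established cell line from a human head and neck squamous cell carcinoma, and its poly(A)+ RNA was sequenced from 4 normoxia replicates and from 4 hypoxia replicates held in 0.5% O2 for 16 h. All 8 samples came from this line in the same glucose-rich medium, and oxygen was the condition that differed. The genes of respiratory complex I were taken by symbol, as those that begin with NDUFA, NDUFB, NDUFC, NDUFS, NDUFV or NDUFAF, with NDUFA4 and NDUFA4L2 left out. Of 14528 named genes in the deposited table, 47 met this rule, and they held 84 of its 24812 transcript entries. They were 36 subunits, the 8 NDUFAF assembly factors, and 3 loci that are noncoding or a pseudogene. The core subunit NDUFS7 was not analysed here.

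Complex I, or NADH:ubiquinone oxidoreductase, is the entry point for NADH electrons into the respiratory chain. It is an L-shaped enzyme of the inner mitochondrial membrane. Its matrix arm holds a flavin and a chain of iron-sulfur clusters that pass electrons to ubiquinone, and its membrane arm pumps protons. Core subunits carry out the catalysis, and some of them are encoded by mitochondrial DNA and lie outside the rule used here. Accessory subunits surround the core, and assembly factors help to build the enzyme in modules and then leave it.

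Each condition was given as 1 FPKM value (a fragment count scaled to transcript length and to the mapped fragments of the library) per transcript over its 4 replicates, so no spread between replicates could be computed and no difference was tested. Changes are given as log2(hypoxia FPKM + 0.1) minus log2(normoxia FPKM + 0.1), where a gene is the sum of its listed transcripts. A mean FPKM of 0.5 or more was required, which left 12106 genes, and a difference past 1.5-fold (a log2 change of 0.58) was counted. The FPKM column summed to 536005 in normoxia and to 458431 in hypoxia, and scaling both to the same sum would raise every log2 change by about 0.23. Of the hypoxia response genes chosen as a check, all 9 analysed were higher in hypoxia, with log2 changes from 1.02 for VEGFA (21.3 FPKM in normoxia, 43.2 in hypoxia) to 5.58 for NDRG1. The epithelial markers analysed were 7 of 8 listed. They ran in normoxia from 5.10 FPKM for KRT6A (3.26 in hypoxia) and 16.9 for SFN to 317 for EPCAM and 398 for KRT5. Of 8 markers of other cell types, only CD14 and CDH5 were analysed. CD14 was below the limit of 0.5 (0.119 FPKM in normoxia, 0.132 in hypoxia), and CDH5 was above it (4.78 in normoxia, 2.83 in hypoxia).

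Complex I transcripts were lower in hypoxia as a group, at a median of 75.8% of the normoxia level for coding members. The assembly factors with NDUFAF symbols differed by more than the subunits, while assembly factors with other symbols did not by their median. All 44 coding members had a lower FPKM in hypoxia, whereas 56.4% of all genes compared did. Their median log2 change was -0.40, beside -0.07 for all genes. Past 1.5-fold, 10 of the 44 (22.7%) were lower, beside 11.2% of all genes, and 0 were higher, beside 9.95% of all genes. Of these 10 genes, 7 were NDUFAF assembly factors and 3 were the subunits NDUFS8, NDUFB10 and NDUFA13. The subunits alone thus gave 3 of 36 past 1.5-fold (8.33%), a share near that of all genes.

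The direction of the smaller differences rested on the scaling. With both columns scaled to equal sums, 33 of the 44 coding members were below 0, beside 36.3% of all genes. Past 1.5-fold, 5 of the 44 were lower, beside 4.96% of all genes. Those 5 were NDUFAF2, NDUFAF3, NDUFAF4, NDUFAF8 and NDUFS8. The 11 that lay above 0 under this scaling were all subunits, among them NDUFA2, NDUFA8, NDUFB2, NDUFB3, NDUFB4, NDUFB5, NDUFB6, NDUFB8, NDUFB11 and NDUFC1. Abundant genes were lower in hypoxia more often than others. At a mean FPKM of at least 10, 68.3% of all genes were below 0, with a median log2 change of -0.18, and 13.1% were lower past 1.5-fold. At that limit, 40 coding members were left, all 40 below 0, with a median of -0.38 and 9 past 1.5-fold.

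**Figure D1:**
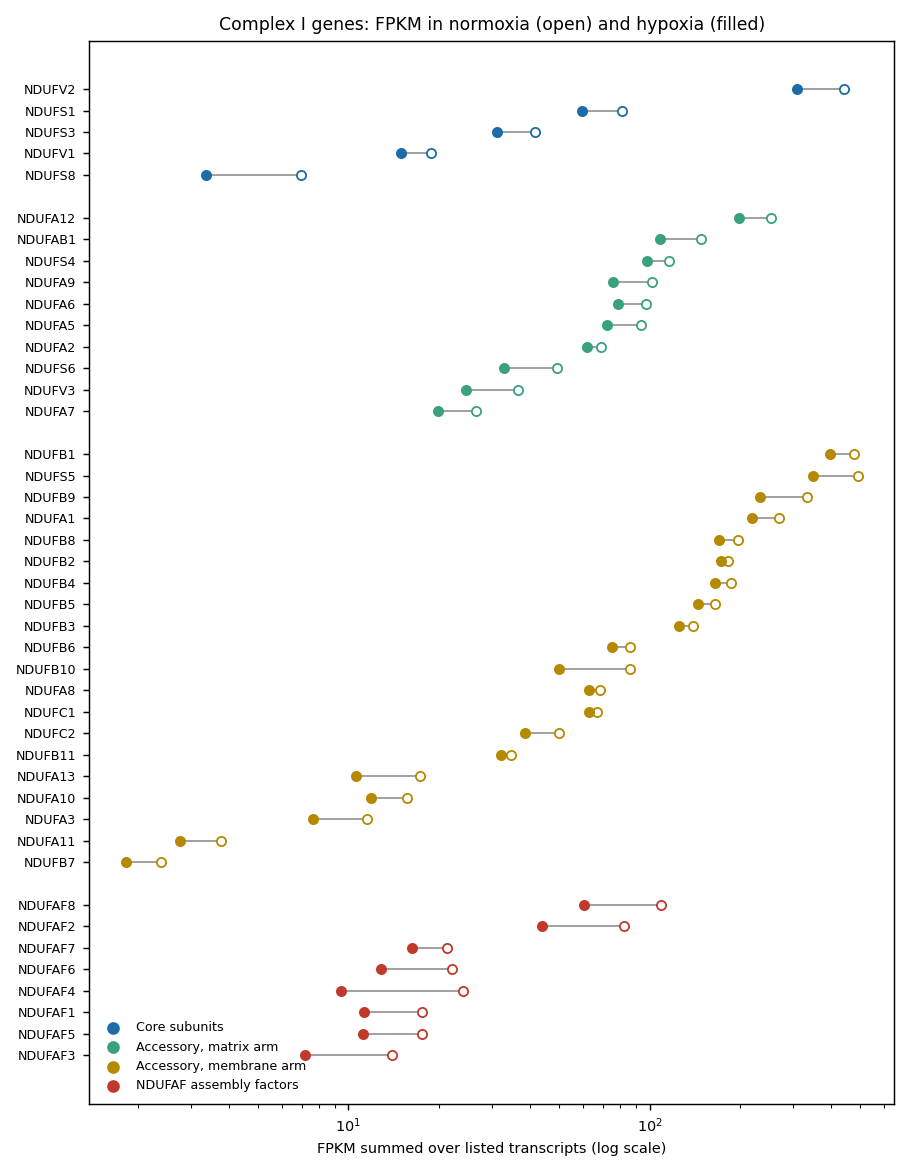
FPKM of 43 coding members in normoxia (open circles) and hypoxia (filled circles) on a log axis, 1 value per condition, grouped by role and ordered by level. Every filled circle lies to the left of its open circle, with the widest gaps at NDUFAF4 and NDUFS8.

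The core subunits of the matrix arm carry the redox groups, and 6 were analysed, with a median log2 change of -0.43. NDUFV1, which binds the flavin and oxidizes NADH, stood at 18.8 FPKM in normoxia and 14.9 in hypoxia (log2 change -0.33). Its iron-sulfur partner NDUFV2 was far more abundant and was lower in hypoxia, at 308 FPKM against 441 (-0.52). NDUFS1, the large iron-sulfur subunit, was at 80.9 FPKM in normoxia and 59.5 in hypoxia (-0.44). NDUFS3 was at 41.6 and 31.2 FPKM (-0.41).

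NDUFS8, a ferredoxin-like subunit that carries iron-sulfur clusters, had the largest difference of all 36 subunits. Hypoxic cells had 3.37 FPKM of it and normoxic cells 6.98, which is 2.04-fold lower (-1.03). It lies on chromosome 11 of hg19 (67798084 to 67804111, plus strand). Among all genes compared, 2.34% had a lower log2 change. NDUFS8 had the lowest level of the 6 core subunits, and it was the only core subunit past 1.5-fold.

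The 10 accessory subunits of the matrix arm were all lower in hypoxia, beside 56.4% of all genes, and 0 were past 1.5-fold, beside 11.2% lower. Their median log2 change was -0.40, and 9 of the 10 were also below 0 with equal sums, beside 36.3% of all genes. NDUFV3 (36.6 FPKM in normoxia, 24.5 in hypoxia) and NDUFS6 (49.1 and 32.9), which sit at the NADH-oxidizing end of the arm, lay just short of the limit at 1.49-fold lower each. NDUFA2 differed least, at 68.9 and 61.9 FPKM (-0.15). NDUFS4, whose mutations are a known cause of Leigh syndrome, was at 116 FPKM in normoxia and 98.0 in hypoxia (-0.24). NDUFAB1, the mitochondrial acyl carrier protein, which also serves fatty acid synthesis, was at 148 and 108 FPKM (-0.45). The other members were NDUFA5 (-0.37), NDUFA6 (-0.30), NDUFA7 (-0.42), NDUFA9 (-0.43) and NDUFA12 (-0.35).

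The membrane arm held 20 accessory subunits, with a median log2 change of -0.28. With equal sums, 11 of the 20 were below 0, beside 36.3% of all genes. NDUFB10 was at 86.0 FPKM in normoxia and 50.1 in hypoxia, 1.71-fold lower, and lies on chromosome 16 (2009539 to 2011976, plus strand). NDUFA13, also known as GRIM-19, was at 17.3 and 10.6 FPKM, 1.62-fold lower, on chromosome 19 (19626545 to 19639863, plus strand). NDUFA3 (11.5 and 7.65 FPKM) was just short of the limit at 1.49-fold. Of the subunits with paired cysteine motifs that face the intermembrane space, NDUFB10 was thus past 1.5-fold, whereas NDUFA8 (68.5 and 63.0 FPKM, -0.12), NDUFS5 (491 and 349, -0.49) and NDUFB7 (2.39 and 1.82, -0.37) were not.

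Within the NDUFB group the differences were mostly small. NDUFB2 had the smallest difference of all coding members, with 182 FPKM in normoxia and 173 in hypoxia (-0.07), and NDUFC1 was next, with 66.7 and 63.1 FPKM (-0.08). Both lay close to the median of all genes. NDUFB11 (-0.11), NDUFB3 (-0.16), NDUFB4 (-0.18), NDUFB5 (-0.18), NDUFB6 (-0.20) and NDUFB8 (-0.21) followed. The 11 NDUFB subunits had a median of -0.20 as deposited and of 0.03 with equal sums, beside -0.07 and 0.15 for all genes. NDUFB9, at 332 FPKM in normoxia and 232 in hypoxia (-0.52), had the second largest difference of the group after NDUFB10. NDUFB1, the most abundant member by the mean of both conditions, was at 478 and 397 FPKM (-0.27), and NDUFA1 at 269 and 219 (-0.29). NDUFA10 (-0.39), NDUFA11 (-0.44) and NDUFC2 (-0.37) completed the arm.

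The NDUFAF assembly factors had the larger differences. Their median log2 change was -0.81, or 57.0% of the normoxia level, beside -0.37, or 77.2%, for the subunits. All 8 were below the median of the subunits, and 7 of the 8 lay at or below -0.62, the limit under which 10% of all genes compared lay. All 8 stayed below 0 with equal sums, beside 36.3% of all genes. Their median there was -0.59, and 4 of the 8 were lower past 1.5-fold, beside 4.96% of all genes. The difference between the medians of the 8 factors and the 36 subunits was -0.44 as deposited and -0.48 after quantile normalization. Equal sums, and centring on the median of all genes, shift all genes by about the same amount. Those 2 scalings therefore could not change this difference. The difference was not tested, since genes of a group are not replicates. The factors were also less abundant, with a median level of 17.1 FPKM against 69.1 for the subunits.

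NDUFAF4 had the largest difference of all members. It acts with NDUFAF3 early in assembly, on the module that holds the ubiquinone site. Hypoxic cells had 9.48 FPKM of it and normoxic cells 24.0, which is 2.52-fold lower (-1.33), and 0.735% of all genes lay below it. It lies on chromosome 6 (97337191 to 97345767, minus strand). Its partner NDUFAF3, on chromosome 3 (49057892 to 49060928, plus strand), was at 13.9 and 7.17 FPKM, 1.92-fold lower. Only NDUFS8 lay between these partners among the coding members.

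NDUFAF2 is a paralog of the subunit NDUFA12 and is bound to late assembly intermediates that lack it. NDUFAF2 was at 82.3 FPKM in normoxia and 43.9 in hypoxia (-0.91), while NDUFA12 was at 253 and 198 (-0.35). NDUFAF8 and NDUFAF5 also act as partners, and NDUFAF5 modifies the core subunit NDUFS7. NDUFAF8 was at 109 FPKM and 60.7 (-0.84), and NDUFAF5 at 17.6 and 11.2 (-0.65). NDUFAF6, which is needed for an early assembly step, was at 22.0 and 12.8 FPKM (-0.78).

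NDUFAF1 belongs to the assembly complex of the membrane arm that also holds ACAD9, ECSIT and TMEM126B. It was at 17.6 FPKM in normoxia and 11.3 in hypoxia (-0.63). ACAD9 was at 18.2 and 14.8 FPKM (-0.30), ECSIT at 4.65 and 3.02 (-0.60) and TMEM126B at 109 and 75.1 (-0.54). NDUFAF7, a methyltransferase of the mitochondrial matrix, was the exception among the factors, at 21.2 and 16.3 FPKM (-0.37), and it alone did not pass 1.5-fold.

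Assembly factors outside the NDUFAF symbols were compared as a list of 14 genes. All 14 were lower in hypoxia as deposited, beside 56.4% of all genes, and 12 of them with equal sums, beside 36.3%. Their median log2 change was -0.37, the same as for the subunits. Past 1.5-fold, 3 (21.4%) were lower, beside 11.2% of all genes: ECSIT, COA1 and DMAC1. DMAC1, a factor of the distal membrane arm, differed most, with 15.5 FPKM in normoxia and 9.09 in hypoxia (-0.76), and COA1 was at 37.4 and 24.3 (-0.62). AIFM1, a mitochondrial flavoprotein, differed least (19.4 and 17.1 FPKM, -0.18).

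**Figure D2:**
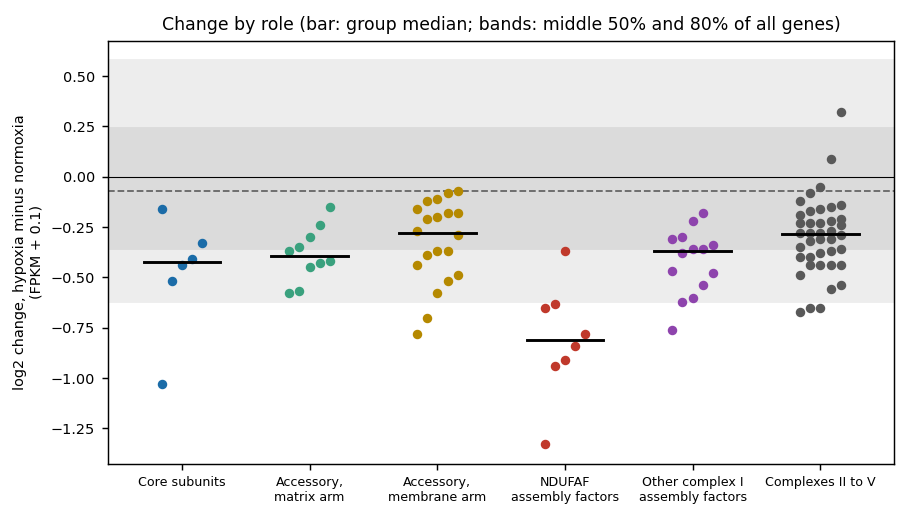
Log2 change of each gene (points) by role, with the group median as a bar; the grey bands hold the middle 50% and 80% of all 12106 genes and the dashed line is their median of -0.07. The bar of the NDUFAF factors lies at -0.81, below the band, and those of the subunit groups lie between -0.43 and -0.28.

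**Figure D3:**
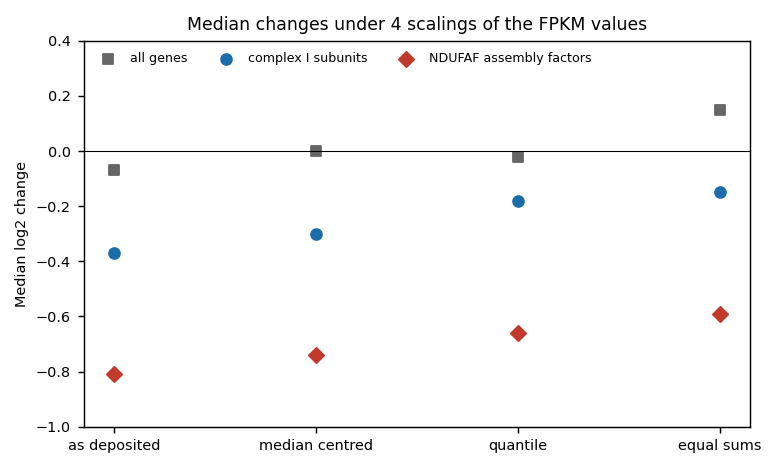
Median log2 change of all genes (squares), of the 36 subunits (circles) and of the 8 NDUFAF factors (diamonds) under 4 scalings of the same 2 columns of FPKM. Both complex I medians lie below that of all genes, and the subunit median moves from -0.37 as deposited to -0.15 with equal sums. Equal sums and median centring shift all genes by about the same amount, so they keep the order of the medians.

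The upstream sequences of 4 members are shown, those of 2 factors past 1.5-fold (NDUFAF4 and NDUFAF5) and of 2 subunits with small differences (NDUFA8 and NDUFB2). They are RefSeq windows of 300 bases, from 250 bases before the annotated transcription start to 50 after it, so they hold the promoter and the first bases of the transcript. Their build is GRCh38.p14, not the hg19 of the deposited table. NDUFAF4 is at chr6:96897842-96898141 (minus strand), NDUFAF5 at chr20:13784778-13785077 (plus strand), NDUFA8 at chr9:122159730-122160029 (minus strand) and NDUFB2 at chr7:140696458-140696757 (plus strand). Capitals mark matches to the letters searched on both strands: ACGTG (the core bound by hypoxia-inducible factors), GCGCATG (part of the site of nuclear respiratory factor NRF1), CCGGAAG (ETS factors such as GABP, also called NRF2) and AAGATGG (YY1). The last pair of motifs share the letters AAG and can overlap.
NDUFAF4: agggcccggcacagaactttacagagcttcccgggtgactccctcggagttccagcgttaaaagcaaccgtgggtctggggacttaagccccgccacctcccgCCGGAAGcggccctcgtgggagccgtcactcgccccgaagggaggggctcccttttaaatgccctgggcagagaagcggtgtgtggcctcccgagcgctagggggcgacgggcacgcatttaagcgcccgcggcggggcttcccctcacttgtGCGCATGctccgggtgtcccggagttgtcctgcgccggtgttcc
NDUFAF5: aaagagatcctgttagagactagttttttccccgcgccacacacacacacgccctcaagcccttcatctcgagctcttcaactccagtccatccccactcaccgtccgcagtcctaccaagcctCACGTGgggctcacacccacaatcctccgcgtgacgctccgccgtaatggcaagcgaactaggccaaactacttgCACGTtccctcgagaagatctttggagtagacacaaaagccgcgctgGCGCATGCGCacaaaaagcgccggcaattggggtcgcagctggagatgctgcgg
NDUFA8: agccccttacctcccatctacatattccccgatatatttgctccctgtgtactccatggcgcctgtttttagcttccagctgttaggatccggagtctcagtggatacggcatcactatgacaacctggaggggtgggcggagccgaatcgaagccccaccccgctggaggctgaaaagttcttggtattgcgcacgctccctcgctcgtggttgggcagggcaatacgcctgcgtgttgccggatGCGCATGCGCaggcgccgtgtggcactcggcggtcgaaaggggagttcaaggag
NDUFB2: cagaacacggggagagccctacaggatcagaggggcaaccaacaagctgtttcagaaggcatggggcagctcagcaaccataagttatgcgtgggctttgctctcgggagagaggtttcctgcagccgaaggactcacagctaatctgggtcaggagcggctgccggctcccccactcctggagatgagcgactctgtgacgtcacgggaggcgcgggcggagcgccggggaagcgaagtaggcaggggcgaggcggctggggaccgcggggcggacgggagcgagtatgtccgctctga

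The NDUFAF5 and NDUFA8 windows each held the NRF1 letters on both strands, overlapping, at positions -4 and -1 from the start site, and the log2 changes of these genes were -0.65 and -0.12. NDUFAF5 also held 3 matches to ACGTG, of which a pair on opposite strands overlap. NDUFAF4 held CCGGAAG at position -147 and GCGCATG at position 7, and the NDUFB2 window held none of the letters searched. Windows were matched for 38 of the 44 coding members. ACGTG was found for 9 of these 38 (23.7%), beside 32.5% of the genes compared that have a window and 21.4% of all windows. GCGCATG was found for 8 (21.1%), beside 9.05% of the genes and 4.43% of all windows. CCGGAAG was found for 7 (18.4%), beside 23.2% and 10.3%. AAGATGG was found for 9 (23.7%), beside 9.52% and 5.84%. These matches describe the letters searched in the windows, without the GCGTG form of the hypoxia-inducible factor core, and binding was not measured here.

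The value of a gene is the sum of its transcripts, so their directions are not separate evidence. For 24 of the 44 coding members only 1 transcript was listed. Of 81 transcripts listed for the coding members, 71 had a mean FPKM of at least 0.5, and 64 of these were lower in hypoxia. The most abundant transcript was lower for 43 of the 44 genes, NDUFC1 being the exception. The other 7 transcripts were higher, 3 of them past 1.5-fold, among them transcripts of NDUFS1 and NDUFB4. The shares over all transcripts are not given here.

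NDUFS1 was listed with transcripts that went opposite ways. Its main transcript NM_005006 was at 71.1 and 47.3 FPKM (-0.59), which is past 1.5-fold although the sum was not. NM_001199983 was at 6.95 and 3.61 FPKM, and NM_001199984 at 2.82 and 8.54 (1.56), so that the share of the last went from 3.49% to 14.4%.

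Shares also shifted by 5 percentage points or more for NDUFC1, NDUFAF5 and NDUFA11. For NDUFC1, NM_001184987 was level, at 31.1 FPKM in normoxia and 31.3 in hypoxia, while NM_001184990 was at 27.4 and 21.7. For NDUFAF5, NM_024120 made up 69.7% of the sum in normoxia and 63.6% in hypoxia. For NDUFA11, NM_175614 made up 54.7% and 49.4%. The transcript of NDUFB4 that was higher past 1.5-fold was NM_001168331, at 1.25 and 2.08 FPKM, a small part of that gene. Cufflinks estimates how reads are shared between overlapping transcripts, and the error of these shares is not known here.

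**Figure D4:**
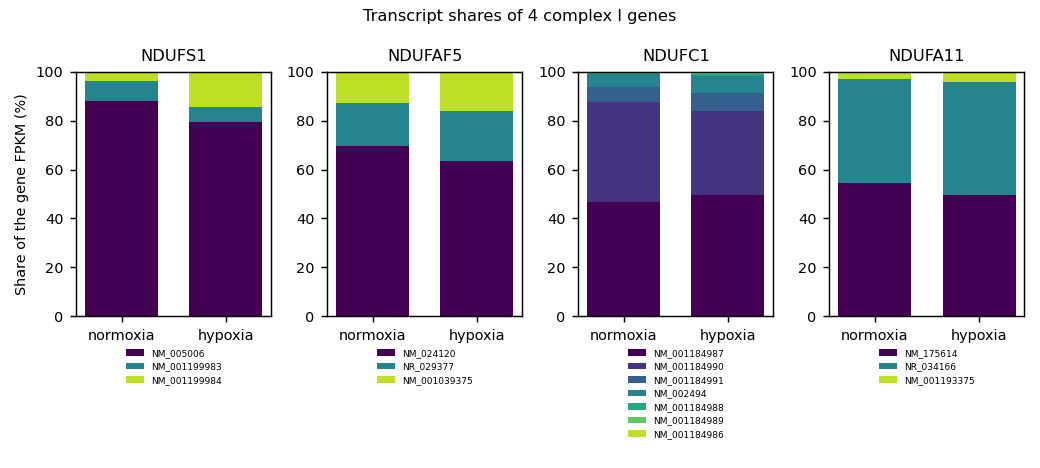
Share (%) of each listed transcript in the summed FPKM of its gene, in normoxia and in hypoxia, for 4 genes with a shift of at least 5 percentage points. NM_001199984 of NDUFS1 goes from 3.49% to 14.4%, and NM_024120 of NDUFAF5 from 69.7% to 63.6%.

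Levels differed widely among subunits that the assembled enzyme holds together. Per length, the mean FPKM of both conditions ran from 2.11 for NDUFB7 to 438 for NDUFB1, and 6 subunits were over 200 FPKM: NDUFB1, NDUFS5, NDUFV2, NDUFB9, NDUFA1 and NDUFA12. After NDUFB7, the lowest were NDUFA11 (3.27), NDUFS8 (5.17) and NDUFA3 (9.56). GC content of the canonical GENCODE transcript moved with the level. It was 64.9% for NDUFB7, 62.3% for NDUFA11, 63.5% for NDUFS8 and 56.0% for NDUFA3, and between 42.7% and 53.0% for the 6 most abundant. The next lowest in level, NDUFA10 (13.8 FPKM), had 47.0% GC, within the range of the most abundant. Across 35 subunits with a GC value, Spearman's rho of log2 level with GC content was -0.62 (Pearson's r -0.67), and across 11767 genes it was -0.35 (-0.34). These points share their libraries and are not independent replicates.

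The difference between conditions followed GC content less closely. Across the same 35 subunits, Spearman's rho of log2 change with GC content was -0.27 (Pearson's r -0.38), and across 11767 genes it was 0.01 (0.00). The 5 subunits at 60% GC or more, NDUFS8 and NDUFA13 among them, had a median log2 change of -0.44, beside -0.35 for the 11 below 45%. The bands between them had no order, with medians of -0.39 from 45% to 50%, -0.16 from 50% to 55% and -0.57 from 55% to 60%. NDUFAF4, with the largest difference, had 36.5% GC, and NDUFAF8 61.4%. The part of GC content in the levels or the differences was not tested.

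**Figure D5:**
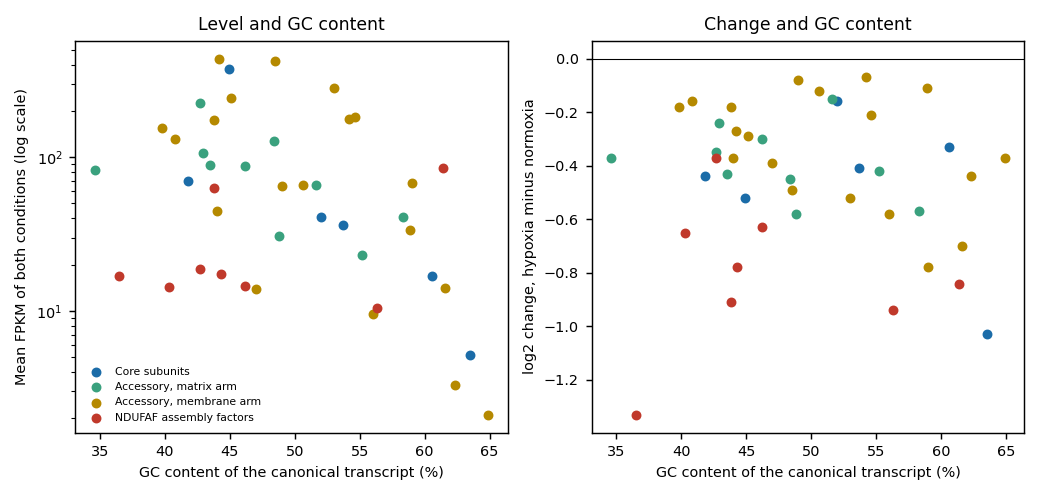
Mean FPKM of both conditions on a log axis (left) and log2 change (right) against the GC content (%) of the canonical transcript, for 43 coding members coloured by role. The lowest levels, NDUFB7, NDUFA11 and NDUFS8, lie above 60% GC, while the NDUFAF factors with large differences spread from 36.5% to 61.4%.

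Nuclear subunits of the other respiratory complexes were compared by their counts. Of 40 genes of complexes II to V with a mean FPKM of at least 0.5, 38 were lower in hypoxia, beside 56.4% of all genes. With equal sums, 28 of the 40 were lower, beside 36.3%. Their median log2 change was -0.29 as deposited. Past 1.5-fold, 3 (7.50%) were lower as deposited, beside 11.2% of all genes, and 0 with equal sums, beside 4.96%. The medians were -0.14 for 4 genes of complex II, -0.29 for 9 of complex III, -0.25 for 10 of complex IV and -0.35 for 17 of complex V. The complex I subunits, with -0.37 and 8.33%, lay close to these values, and the difference was not tested. Under equal sums the median of complexes II to V was -0.06 and that of complex I subunits was -0.15, beside 0.15 for all genes. In complex II, SDHB was at 216 and 138 FPKM (-0.65), while SDHA (38.2 and 40.8) and SDHC (9.79 and 12.3) were higher in hypoxia. The 3 genes past 1.5-fold, SDHB, CYC1 (-0.67) and ATP5MC1 (-0.65), differed less than NDUFS8, NDUFB10 or NDUFA13.

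The 3 noncoding or pseudogene loci all had a mean level below 1 FPKM. NDUFAF4P1, a pseudogene copy of NDUFAF4, was at 0.475 FPKM in normoxia and 0.615 in hypoxia (0.32), and its sequence likeness to NDUFAF4 makes both values uncertain. NDUFA6-DT (0.334 and 0.399 FPKM) and the antisense NDUFB2-AS1 (0.186 and 0.136) were below the limit of 0.5.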

How the data were processed

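RNA of 4 normoxia and 4 hypoxia replicates was analysed from the authors' deposited table. The authors aligned stranded poly(A)+ reads to RefSeq hg19 with STAR (version 2.3.0.1) and used the Cufflinks suite (version 2.1.1) with standard parameters. The deposited FPKM values are 1 value per transcript and condition over its replicates. FPKM keeps no depth of single samples, and no counting interval was computed. The table's columns of the authors' own comparison (log2 fold change, test statistic, p-value and q-value) were not used. The table held 24812 entries with 24797 distinct identifiers, and 24293 (97.9%) were paired with a gene symbol through the RefSeq annotation of GRCh38.p14, used for names only.

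FPKM was summed per gene, and changes were computed with a pseudocount of 0.1 where the mean FPKM was 0.5 or more. The pseudocount understates changes of low genes. No test was run, since each condition is 1 value, and counts past 1.5-fold were set beside those of all genes. Alternatives were tried for the pseudocount, FPKM limit, scaling, transcript choice and fold limit. All members were eligible to be named, but 1 that is counted in the totals is not reported here by itself. Both FPKM values were given for those past 1.5-fold, the extremes of level and of change in each role, the core subunits and the NDUFAF factors. Gene positions and GC content came from GENCODE 44 lifted to GRCh37, whose coordinates are those of hg19. A GC value was found for 43 of the 44 coding members and for 97.2% of genes compared. The members and lists were chosen with earlier results of these data known, and the GC comparison, motifs and transcript shares were chosen after the values were seen. The computation was tested on simulated data. Software was Python 3.11.15 with pandas 2.3.3, numpy 2.4.6, scipy 1.17.1 and matplotlib 3.10.9.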

Additional observations from a re-analysis of the deposited data

How the results depend on the processing

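No paired analysis was possible because the deposited table gives 1 value per condition and none per replicate, and for the same reason no replicate could be left out. As deposited, 10 of 45 members with a mean FPKM of at least 0.5 were lower past 1.5-fold, 0 were higher, and the median log2 change was -0.39. With equal sums the count of lower members was 5 of 45, where 4.96% of all genes were lower past 1.5-fold. With a fold limit of 1.2 it was 32 of 45, where 33.0% of all genes were lower past that limit. With a fold limit of 2 it was 2 of 45, where 2.62% of all genes were. Under the other alternatives the count lay between 7 and 12. With a fold limit of 1.2, 1 member was higher, the pseudogene NDUFAF4P1. The median was -0.37 with a pseudocount of 1 and without an FPKM limit, -0.40 at a mean FPKM of at least 1, -0.38 at 10, -0.40 for the most abundant transcript alone and -0.40 for coding members. It was -0.16 with equal sums, -0.32 after centring on the median of all genes and -0.22 after quantile normalization. As deposited and after centring, 44 of 45 members were below 0, against 32 after quantile normalization, 33 with equal sums and 43 for the most abundant transcript alone. No member past 1.5-fold turned its sign under any alternative that was run. Most alternatives could not turn one: pseudocount and limits leave the sign as it is, and the equal sums shift of 0.23 is below 0.58. With 1 value per condition, differences as small as those of most subunits cannot be set against replicate error.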

Other observations

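A low level at high GC content was also seen for a single gene of complex V. ATP5F1D, the delta subunit of the ATP synthase, with a GC content of 69.5%, had 0.140 FPKM under normoxia and 0.0754 under hypoxia, while the other 17 complex V genes had mean levels of 55.7 to 829 FPKM. ATP5F1E, the epsilon subunit, with 38.4% GC, was at 862 and 795 FPKM. ATP5MC3, the lowest of those 17, had a similar GC content of 38.5% and was at 61.0 and 50.3 FPKM. Over all genes compared, the median level was 16.7 FPKM below 45% GC and 5.03 FPKM from 55% to 60%, while the median log2 changes of these bands were -0.09 and -0.07. The part of GC content in these levels was not tested.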
